A study of Mus musculus with 39 samples.

Results

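This comparison sets the hippocampus of APP/Tau mice against that of control mice, both left untrained. Its members are the 10 libraries whose labels give hippocampus and naive, out of 39 libraries in the series, with 5 APP/Tau mice and 5 controls. Each library is labelled as a separate sample of 9-month-old mice, and Female stands under a cell line tag. The p-values measure the spread between these samples. The APP/Tau mice come from a cross of the J9 line, with human APP of the Swedish and Indiana mutations, and the PS19 line, with human tau P301S, both on C57BL/6. The controls carry neither transgene by their labels, and both groups also carry Camk2a_Cre and RiboTag+/-, which puts a tag on the ribosomes of excitatory forebrain neurons. Only the input was sequenced, the post-mitochondrial supernatant of the lysate, not enriched for tagged ribosomes, so the libraries hold RNA of all cell types of the dissected hippocampus. The series as a whole also holds amygdala libraries and libraries of fear-conditioned mice, and asks how amyloid and tau pathology act together on circuits of memory and emotion.

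As background, amyloid precursor protein is cut by secretases into amyloid-β peptides, which gather in extracellular plaques, while mutant tau aggregates inside neurons. In the J9 line the transgene is driven by the platelet-derived growth factor B promoter and in the PS19 line by the mouse prion protein promoter. In mouse brain, microglia that contact plaques are known to switch on lipid, lysosome and surface receptor genes through the receptor Trem2 and its adaptor Tyrobp, and astrocytes around plaques raise the filament protein Gfap.

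In units of M (10 to the power of 6 counts), library totals ran from 94.2 M to 120.4 M, with a median of 109.9 M, and genes encoded by mitochondria held 2.97 to 3.91% of them. Levels below are CPM, counts per M of the library total scaled with TMM factors, which even out library composition, and differences are log2 fold changes of APP/Tau over control ± standard error. Markers of hippocampal neurons were present in all 10 libraries. Prox1 of dentate granule cells was at 67.2 to 173 CPM, Fibcd1 of CA1 neurons at 102 to 172 CPM and Rgs14 of CA2 neurons at 77.5 to 103 CPM. Control library 1 stood apart in 18S ribosomal RNA, which took 5.18% of its counts and at most 0.242% of any other library. APP/Tau library 5 stood apart in glial genes, as given with those genes. Among counts of 1 to 20, the share of even counts was 62.7% in APP/Tau 4, 60.6% in APP/Tau 5 and 54.9 to 58.3% in the other 8 libraries, and its part in the results was not tested. In bulk tissue, a change in the number of cells of a type and a change in RNA per cell cannot be told apart.

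Of 23716 genes tested, 11 rose and 10 fell in the APP/Tau mice at an adjusted p under 0.05 (edgeR quasi-likelihood F test, Benjamini-Hochberg adjustment), which is 0.0464% and 0.0422% of the genes. At an unadjusted p under 0.05 there were 2058 genes with higher and 1794 with lower values, or 8.68% and 7.56%. In 605 genes (2.55%) all 5 APP/Tau values lay above all 5 control values, and in 570 genes (2.4%) all 5 lay below. The median log2 difference over all genes tested was 0.01.

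**Figure D1:**
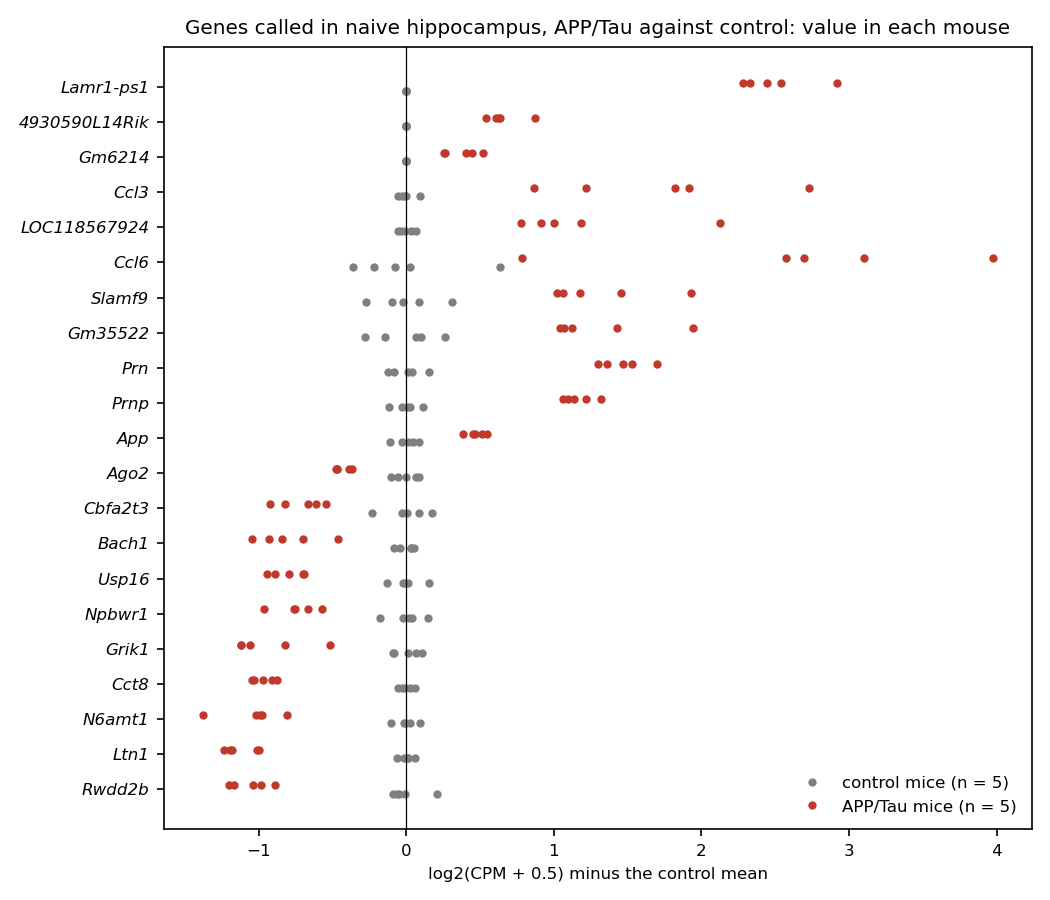
Value of each of the 21 called genes in each mouse, as log2(CPM + 0.5) minus the mean of the 5 controls, with controls in grey and APP/Tau mice in red. In no called gene do the groups overlap; Lamr1-ps1, 4930590L14Rik and Gm6214 are at 0 in every control.

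Among the proteins carried as transgenes, App rose and Mapt did not pass the test. App, the amyloid precursor protein, had levels of 2506, 2485, 2653, 2590.5 and 2367 CPM in APP/Tau mice 1 to 5. In controls 1 to 5 it had 1871, 1675, 1777, 1825 and 1926 CPM. Every APP/Tau mouse lay above every control, and the difference was 0.47 ± 0.06 (edgeR adjusted p = 0.00673). Mapt, the microtubule protein tau, was at 622, 642, 592, 651 and 641 CPM in the APP/Tau mice and at 558, 536, 524, 545 and 536 CPM in the controls. These values do not overlap either, but the difference of 0.22 ± 0.05 missed the threshold (edgeR adjusted p = 0.0928), and leaving out APP/Tau mouse 5 gave 0.22 ± 0.04 with an edgeR adjusted p of 0.0361. Human and mouse transcripts were not separated here, so a level adds the mouse gene to those transgene reads that align to it.

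The prion protein locus held the rising genes with the smallest p. Prnp, the prion protein, was at 1901, 2222, 1955, 2069 and 1854 CPM in the APP/Tau mice and at 892, 821, 902, 871 and 962 CPM in the controls, a rise of 1.17 ± 0.07 (edgeR adjusted p = 4.3e-06). Prn, a readthrough symbol of the same locus that may share its reads, was at 142, 188, 159, 167 and 148 CPM against 59, 52.6, 57.8, 54.2 and 64 CPM. In both genes the lowest APP/Tau value lay well above the highest control, and Prn rose by 1.48 ± 0.08 (edgeR adjusted p = 3.16e-06). Lamr1-ps1, a processed pseudogene of the laminin receptor that lies next to Prn in the RefSeq order of chromosome 2, had 0 counts in all 5 controls and 181 to 365 counts in the APP/Tau mice. Against a floor of 3 counts over the control group it was at least 427-fold higher (edgeR adjusted p = 4.57e-05). Reads of a pseudogene may belong to near-identical copies, so its assignment is uncertain.

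The other members of the transgene list are those that all mice carry. Camk2a, the kinase gene whose promoter drives Cre, was at 3141, 4076, 3652, 3551 and 1705 CPM in the APP/Tau mice and at 3891, 4032, 3794, 4392 and 3473 CPM in the controls (-0.28 ± 0.18, edgeR adjusted p = 0.467). APP/Tau mouse 5 was the lowest of the 10, mouse 1 also lay below every control, and mice 2, 3 and 4 lay within the control range. Without mouse 5 the difference was -0.12 ± 0.08. Rpl22, the ribosomal protein tagged in RiboTag, was at 88.8 ± 7.45 against 82.7 ± 4.63 CPM (mean ± SD, n = 5 each) and did not pass the test, with a difference of 0.10 ± 0.06, or 0.06 ± 0.05 without mouse 5.

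A run of neighbours on chromosome 16 held 7 of the 10 genes that fell. In the RefSeq gene order of chromosome 16 the run is 12 consecutive tested genes from N6amt1 to Gm33207, 8 of them protein-coding. Its limits were set after the values were seen, as the stretch with log2 differences below -0.5. Its extent is therefore a description, and that all 12 genes were lower in the APP/Tau mice follows from that limit. The median log2 difference was -1.07, and in 10 genes the groups did not overlap. Over all genes tested, 2.4% lay below the controls without overlap. The 12 genes were picked on the same values, so setting the 10 beside this share is no test of the run. In the 7 called genes the log2 difference ran from -1.14 to -0.82.

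The genes that fell in the run include some of protein folding, quality control and transcription. Cct8, a subunit of the chaperonin that folds actin and tubulin, was at 81.9, 78.3, 77.6, 87.5 and 85.5 CPM in the APP/Tau mice and at 168, 160.1, 155, 164 and 158 CPM in the controls. Ltn1, the ubiquitin ligase that marks chains stuck on stalled ribosomes, was at 34.1, 30.3, 30, 34.4 and 29.1 CPM against 66.2, 68.5, 69.8, 69.8 and 72.3 CPM. The groups were tight and far apart in both, with differences of -0.97 ± 0.05 and -1.13 ± 0.06 (both edgeR adjusted p = 2.19e-06). Usp16, a deubiquitinase of histone H2A, was at 17, 14.2, 14.8, 17 and 15.8 CPM against 25.3, 28.1, 27.3, 31.1 and 27.6 CPM (-0.82 ± 0.07, edgeR adjusted p = 0.000308). N6amt1, a methyltransferase, was at 11.2, 11.5, 11.4, 13 and 8.63 CPM against 23.1, 21.6, 23.6, 24.8 and 22.9 CPM (-1.06 ± 0.09, edgeR adjusted p = 0.00033). APP/Tau mouse 5 was the lowest of all in N6amt1, and no APP/Tau mouse reached a control in either gene.

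Rwdd2b was at 4.85, 4.51, 3.9, 3.81 and 4.33 CPM in the APP/Tau mice and at 8.99, 9.32, 10.9, 8.81 and 9.05 CPM in the controls (-1.14 ± 0.10, edgeR adjusted p = 0.000308). Bach1, a repressor of heme and redox genes, was at 9.59, 7.46, 8.13, 8.64 and 11.4 CPM against 15, 16.3, 16.3, 15.4 and 16.5 CPM (-0.82 ± 0.11, edgeR adjusted p = 0.00848). Grik1, a kainate receptor subunit, was at 7.43, 5.97, 6.25, 5.96 and 9.32 CPM against 14.6, 13.6, 14.2, 12.7 and 12.7 CPM (-0.96 ± 0.12, edgeR adjusted p = 0.00852). In Bach1 and Grik1 APP/Tau mouse 5 was the highest of its group and still below every control.

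The 5 genes of the run that did not pass the test had means of at most 1.46 CPM in either group. B130034C11Rik had means of 0.529 ± 0.332 and 1.12 ± 0.213 CPM (-1.08 ± 0.45), 2810407A14Rik 0.645 ± 0.217 and 1.46 ± 0.283 CPM (-1.18 ± 0.25, called without mouse 5 with an edgeR adjusted p of 0.0421) and Gm33207 0.156 ± 0.0697 and 0.386 ± 0.104 CPM (-1.29 ± 0.36). Map3k7cl had 0.184 ± 0.125 and 0.343 ± 0.198 CPM and LOC115486002 0.106 ± 0.0507 and 0.293 ± 0.133 CPM, and in these 2 the groups overlapped. Gm46558, just before it, gave -0.39 ± 0.27 and Gm46546, just after it, 0.20 ± 0.20, and neither passed the test. Tiam1, the next gene, was just outside the limit at -0.49 ± 0.12 (edgeR adjusted p = 0.106), without overlap, and the member nearest the limit was Bach1 at -0.82. App lies on the same chromosome, and none of the 7 tested genes between App and the run passed. The largest difference among these 7 was that of the pseudogene Gm6278, at 0.94 ± 0.28 (edgeR adjusted p = 0.154).

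**Figure D2:**
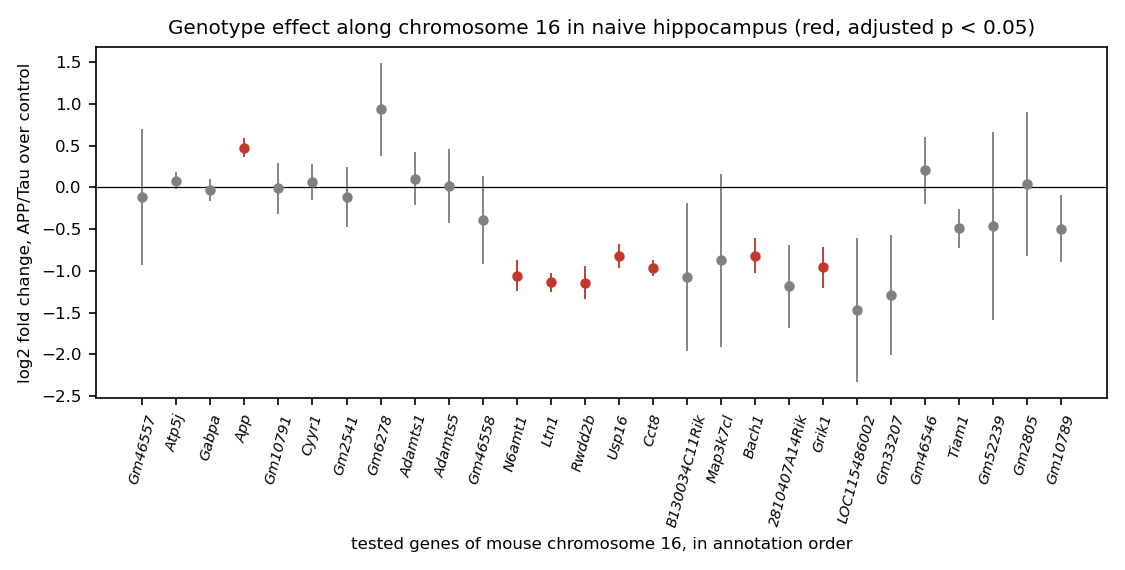
Log2 fold change with its 95% interval for tested genes of chromosome 16 around App, in annotation order and not to distance, with called genes in red. App is above 0. Of the 7 genes that follow, Gm6278 is at 0.94 with its interval above 0, and the rest have intervals that cross 0. The 12 genes from N6amt1 to Gm33207 have a median of -1.07. All are below 0 because the run was set as the stretch below -0.5.

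Besides Lamr1-ps1, 3 unnamed transcripts were found nearly only in the APP/Tau mice. 4930590L14Rik had 25 to 39 counts in each APP/Tau library and 0 in every control, which puts it at least 51.3-fold higher (edgeR adjusted p = 0.00575). Gm6214 had 9 to 24 counts and 0 in every control, at least 27.4-fold higher (edgeR adjusted p = 0.033). Both bounds take 3 counts over the control group as the floor. Both lie on chromosome 3 of the RefSeq table, but are not neighbours in its order. LOC118567924 was at 0.542, 0.684, 0.479, 0.394 and 1.77 CPM in the APP/Tau mice and at 0, 0.0179, 0.0335, 0.00915 and 0.0448 CPM in the controls (5.07 ± 0.64, edgeR adjusted p = 0.00718). limma-voom did not call it (adjusted p = 0.0681). It has no entry in the reference table, and APP/Tau mouse 5 was the highest of the 10. All 3 are at or under about 1 CPM in most mice, and whether the reads belong to these loci was not tested.

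Among named genes, the immune genes that rose were a pair of chemokines and a SLAM receptor. Ccl3, a chemokine that draws in and activates myeloid cells, was at 1.33, 1.46, 0.705, 0.447 and 2.94 CPM in the APP/Tau mice and at 0, 0.00897, 0.0167, 0.0183 and 0.0537 CPM in the controls. It rose by 6.01 ± 0.69 (edgeR adjusted p = 0.00389), with mouse 4 the lowest and mouse 5 the highest of the APP/Tau group. limma-voom did not call it (adjusted p = 0.103). Ccl6, a chemokine of myeloid cells, was at 7.53, 10.2, 6.91, 1.64 and 19 CPM against 0.764, 0.466, 0.569, 0.677 and 1.43 CPM. The lowest APP/Tau value, in mouse 4, was only just above the highest control, and the rise was 3.53 ± 0.54 (edgeR adjusted p = 0.0333). That call held in 3 of 10 fits that left out a library in turn, those without control 5, APP/Tau 4 or APP/Tau 5, with edgeR adjusted p from 0.0018 to 0.167, and limma-voom did not call it (adjusted p = 0.144). Slamf9, a SLAM family receptor of myeloid cells, was at 1.67, 2.14, 1.46, 1.51 and 3.17 CPM against 0.521, 0.296, 0.695, 0.448 and 0.403 CPM, a rise of 2.07 ± 0.28 (edgeR adjusted p = 0.0125). Gm35522, a predicted gene close to Slamf9 on chromosome 1, had nearly the same levels, at 1.74, 2.27, 1.62, 1.66 and 3.46 CPM against 0.602, 0.35, 0.737, 0.577 and 0.43 CPM (1.99 ± 0.27, edgeR adjusted p = 0.0125). Strand was not stated, so reads of overlapping or antisense transcripts at that site cannot be told apart.

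The promoter of Slamf9 is shown because Slamf9 is a called gene whose window, from 250 bases before to 50 after the start site, holds the letters GAGGAAGT, a motif of PU.1, the master transcription factor of myeloid cells. The match, in capitals, lies 8 bases before the start site, and the window is chr1:172475110-172475409, plus strand in RefSeq build GRCm38.p6, written 5′ to 3′ on the gene's strand.
Slamf9: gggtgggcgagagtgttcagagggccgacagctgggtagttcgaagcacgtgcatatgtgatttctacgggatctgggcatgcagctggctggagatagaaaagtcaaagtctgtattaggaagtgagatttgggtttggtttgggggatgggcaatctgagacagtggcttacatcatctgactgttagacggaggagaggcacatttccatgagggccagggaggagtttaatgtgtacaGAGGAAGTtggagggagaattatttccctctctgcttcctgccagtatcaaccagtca
On either strand, these letters were in 3.69% of the windows of all 27025 genes with one, in 2 of 14 windows of called genes, in 3 of 19 of the immune receptor list, in 2 of 24 of the plaque microglia list, in 1 of 15 of the homeostatic microglia list and in 0 of 19 of the interferon list. Of the genes whose APP/Tau values all lay above the controls, 26 of 443 windows, or 5.87%, held them. The share was 3.36% over the 15958 windows of all genes tested. It was 2.42%, or 10 of 413, for genes whose APP/Tau values all lay below. The windows of Ccl3, Ccl6, Cst7, Clec7a, Itgax and Trem2 do not hold them, which says only that these letters are not there.

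The other genes that fell were 3 neuronal or regulatory genes outside the chromosome 16 run. Ago2, the slicer protein of RNA interference, was at 46.7, 47.5, 44.1, 44 and 44.2 CPM in the APP/Tau mice and at 61.4, 65.3, 59.1, 57.1 and 64.4 CPM in the controls (-0.44 ± 0.05, edgeR adjusted p = 0.00389). Cbfa2t3, a transcriptional corepressor, was at 36.3, 34.6, 27.9, 29.9 and 33.4 CPM against 45.2, 59.9, 52.2, 53.2 and 56.5 CPM (-0.72 ± 0.09, edgeR adjusted p = 0.00575). Both had APP/Tau values within a narrow band below all controls, mouse 5 included. Npbwr1, a neuropeptide B/W receptor, was at 1.96, 1.5, 1.81, 2.13 and 1.82 CPM against 3.51, 3.46, 3.35, 2.95 and 3.83 CPM (-0.89 ± 0.13, edgeR adjusted p = 0.0202), a call that held in 4 of the 10 fits that left out a library. It was lost without control 1, 2, 3 or 5 or APP/Tau 2 or 3, with edgeR adjusted p from 0.0109 to 0.0816.

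Genes of plaque-associated microglia stood higher on average in APP/Tau mice, but few passed the test. Of 33 such genes, all tested, 2 rose and none fell, 25 had higher values at an unadjusted p under 0.05, and 15 did not overlap between the groups. Over all genes tested, 8.68% were higher at that p and 2.55% lay above the controls without overlap. These shares serve for the lists below too. The median log2 difference was 1.13, against 0.01 over all genes. Relative to the control mean, the list's median was 0.88, 0.66, 0.52, 0.27 and 2.23 log2 units in APP/Tau mice 1 to 5. Mouse 5 was the highest APP/Tau mouse in 29 of the 33 genes and mouse 4 the lowest in 25. Over all 23716 genes tested, mouse 5 was the highest in 7560 and mouse 4 the lowest in 6108. Without mouse 5, 164 genes rose (0.681% of 24094) and 90 fell (0.374%), 15 of the rising genes in this list.

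Surface receptors and adaptors of this state had a median of 1.85 over 12 genes, and secreted factors 1.55 over 11. Cst7, an inhibitor of cathepsins, was at 5.78, 4.96, 1.93, 0.394 and 20.6 CPM in the APP/Tau mice and at 0.0347, 0.0538, 0.176, 0.146 and 0.206 CPM in the controls (5.73 ± 0.95, edgeR adjusted p = 0.0585). Clec7a, a receptor for fungal glucans, was at 7.92, 8.34, 3.62, 0.596 and 31.4 CPM against 0.555, 0.323, 0.301, 0.183 and 0.143 CPM (5.13 ± 0.88, edgeR adjusted p = 0.0664). In both, mouse 4 lay just above the highest control and mouse 5 was the highest of all. Itgax, the integrin CD11c, was at 6.47, 11, 3.91, 1.09 and 24.1 CPM against 0.845, 0.323, 0.368, 0.421 and 0.26 CPM (4.41 ± 0.72, edgeR adjusted p = 0.0529). Without mouse 5, the 3 genes passed the edgeR test with smaller differences, 4.69 ± 0.69 for Cst7 (adjusted p = 0.00749), 4.11 ± 0.63 for Clec7a (adjusted p = 0.00898) and 3.69 ± 0.55 for Itgax (adjusted p = 0.00782). Of the 10 fits that left out a library in turn, Cst7 and Itgax were called in 3 and Clec7a in 2.

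Trem2, the lipid-sensing receptor, was at 21.2, 19.3, 17.7, 13.7 and 64.4 CPM in the APP/Tau mice and at 7.3, 8.64, 8.8, 9.19 and 8.63 CPM in the controls (1.68 ± 0.36, edgeR adjusted p = 0.0981). Tyrobp, its signalling adaptor, was at 18.3, 16.4, 14.8, 11.1 and 47.5 CPM against 5.08, 6.07, 6.09, 6.92 and 6.42 CPM (1.82 ± 0.33, edgeR adjusted p = 0.073). All 5 APP/Tau mice lay above all controls in both, and in the fit without mouse 5 Trem2 gave 1.08 ± 0.11 (edgeR adjusted p = 0.000802) and Tyrobp 1.31 ± 0.13 (edgeR adjusted p = 0.000606). Of the 10 fits that each left out a library, edgeR called Trem2 in 1 and Tyrobp in 2. The highest edgeR adjusted p in these fits were 0.227 and 0.214. Cd68, a lysosomal membrane protein of phagocytes, was at 15.2, 14, 11.3, 9.19 and 42.8 CPM against 5.47, 5.24, 4.65, 5.04 and 4.71 CPM (1.88 ± 0.36, edgeR adjusted p = 0.077), and without mouse 5 it gave 1.31 ± 0.13 (edgeR adjusted p = 0.000581). The SLAM receptor Cd84 gave 2.22 ± 0.45 and Cd180, a Toll-like receptor homologue, 2.21 ± 0.37, with edgeR adjusted p of 0.0907 and 0.0585. Without mouse 5 they gave 1.56 ± 0.25 and 1.79 ± 0.26 (edgeR adjusted p = 0.0118 and 0.00706). Apoe, the lipid carrier made by astrocytes and microglia, was at 1945, 1859, 1955, 1814 and 4920.0 CPM against 1719, 1852, 1748, 1698 and 1607 CPM. Mouse 5 was far above all others and mouse 4 lay below the highest control. The difference of 0.53 ± 0.25 did not pass (edgeR adjusted p = 0.32), and it was 0.14 ± 0.05 without mouse 5.

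Homeostatic microglial genes, which plaque-associated microglia are known to turn down, were not called lower here. Of 23 genes, none was called in either direction, 17 had higher and none lower values at an unadjusted p under 0.05, and the median was 0.56. The fractalkine receptor Cx3cr1 was at 74, 71.1, 69.9, 59.1 and 163 CPM in the APP/Tau mice and at 47, 51.7, 44.3, 50.1 and 49.5 CPM in the controls (0.85 ± 0.23, edgeR adjusted p = 0.134). The purine receptor P2ry12 was at 47.6, 45.1, 48.3, 49.1 and 64.9 CPM against 36.4, 38.5, 37.6, 39.3 and 41.6 CPM (0.40 ± 0.09, edgeR adjusted p = 0.102), without overlap. Tmem119 differed less, at 25.1, 24.4, 22.1, 23.6 and 38.2 CPM against 22.7, 22.1, 25, 23.4 and 29.1 CPM with overlapping groups (0.13 ± 0.14), and it gave -0.04 ± 0.08 without mouse 5. Without that mouse 8 of the 23 genes rose, among them Cx3cr1 by 0.50 ± 0.07 and P2ry12 by 0.30 ± 0.05 (edgeR adjusted p = 0.00442 and 0.0159). Of the 10 fits that left out a library, this was the only 1 that called Cx3cr1 or P2ry12.

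**Figure D3:**
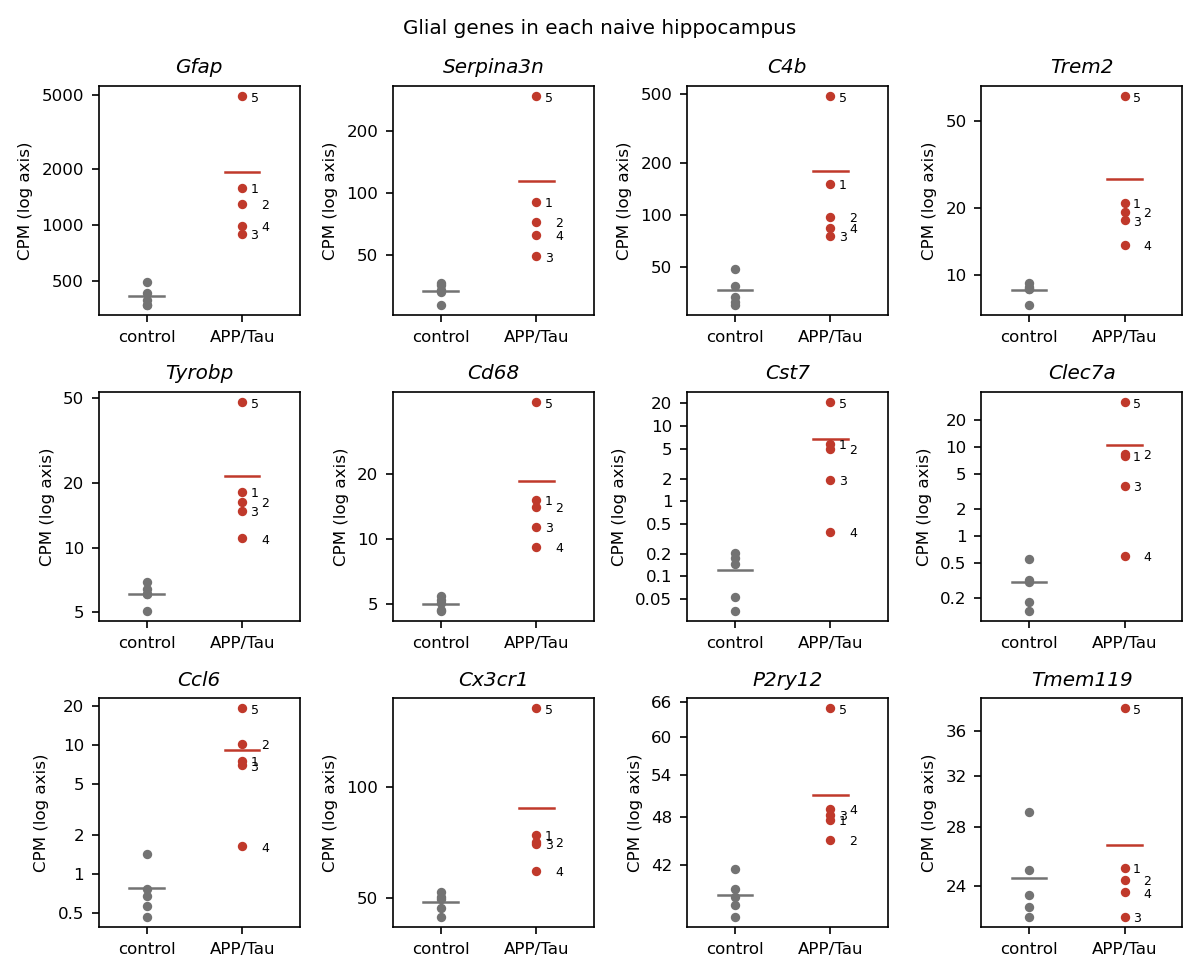
CPM on log axes of 12 astrocytic and microglial genes in the 5 control and 5 APP/Tau mice, with a bar at each group mean and APP/Tau mice numbered. Mouse 5 is the highest in all 12 panels; in Trem2 it stands at 64.4 CPM and the other 4 APP/Tau mice at 13.7 to 21.2 CPM.

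Immune receptors followed the same order of mice. None of 26 was called, 23 had higher values at an unadjusted p under 0.05, and the median was 1.36. The list's median in APP/Tau mice 1 to 5 was 0.81, 0.61, 0.56, 0.13 and 2.16 log2 units over the control mean, and mouse 5 was the highest in all 26. By role, the medians were 1.42 for 9 Toll-like receptors, 1.35 for 5 Fc gamma receptor genes and 1.30 for 12 other myeloid receptors. The transcription factor Spi1, which encodes PU.1, was at 5.5, 4.76, 4.93, 4.05 and 11.5 CPM in the APP/Tau mice and at 2.94, 3.25, 2.37, 2.95 and 3.02 CPM in the controls (1.08 ± 0.25, edgeR adjusted p = 0.104), or 0.73 ± 0.13 without mouse 5 (edgeR adjusted p = 0.0212).

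The classical complement pathway tags material for uptake by phagocytes, and 5 of its 6 genes had higher values in every APP/Tau mouse than in any control. Of all genes tested, 2.55% did so. C4b was at 151, 97.2, 75.4, 84.4 and 482 CPM in the APP/Tau mice and at 48.9, 39, 33.8, 31.3 and 30.2 CPM in the controls (2.28 ± 0.47, edgeR adjusted p = 0.0907). C1qa, a chain of the C1q recognition complex, was at 71, 64.8, 55.8, 40.5 and 266 CPM against 30.1, 30.5, 30.5, 31.8 and 30.8 CPM (1.70 ± 0.43, edgeR adjusted p = 0.119). C1qb gave 1.55 ± 0.35. In all 3 the groups did not overlap, and without mouse 5 the differences were 1.48 ± 0.19, 0.92 ± 0.12 and 0.97 ± 0.12, with edgeR adjusted p of 0.00371, 0.00386 and 0.00225. Each of the 3 was called in 1 of the 10 fits that left out a library. Over the list, none of 14 genes was called, 12 had higher values at an unadjusted p under 0.05 and the median was 1.14. The 4 inhibitors of complement had a lower median, 0.36, than the 6 classical pathway genes, 1.62.

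In antigen presentation the 2 classes of MHC genes had different leading mice. Of 12 class I genes none was called, 11 had higher values at an unadjusted p under 0.05, none was free of overlap, and the median was 0.67. B2m, the light chain of class I, was at 76.2, 67.7, 73.4, 48.7 and 168 CPM in the APP/Tau mice and at 51.7, 64.8, 46.9, 58.5 and 57.5 CPM in the controls (0.64 ± 0.27). H2-D1, a heavy chain, was at 50.8, 39.2, 38, 30.1 and 122 CPM against 32.8, 34.1, 29.3, 25.9 and 34.6 CPM (0.84 ± 0.32). Mouse 5 was highest in all 12, and without it B2m gave 0.25 ± 0.12 and H2-D1 0.33 ± 0.13. Of 7 class II genes none was called and mouse 2 was the highest in 5. Cd74, the invariant chain, was at 8.59, 27.1, 8.61, 2.72 and 19.4 CPM against 2.52, 10.7, 2.47, 2.64 and 4.79 CPM (1.52 ± 0.58), and control 2 lay above mice 1, 3 and 4. H2-DMa, a loading factor, gave 0.01 ± 0.09, with a sign that changes with the processing.

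Genes induced by interferon had a median log2 difference of 0.91 over 25 genes, with none called and 16 higher at an unadjusted p under 0.05. Cxcl10, a chemokine that attracts T cells, was at 2.33, 1.26, 2.04, 0.553 and 5.51 CPM in the APP/Tau mice and at 0.312, 0.412, 0.402, 0.293 and 0.197 CPM in the controls (2.85 ± 0.51, edgeR adjusted p = 0.073). Ifit3, an antiviral RNA-binding protein, was at 7.29, 5.74, 5.87, 4.3 and 12.9 CPM against 3.33, 3.92, 3.77, 2.95 and 3.37 CPM (1.06 ± 0.25, edgeR adjusted p = 0.103). Neither overlapped between the groups. Ifit1, of the same family, was at 4, 3.25, 3.9, 1.82 and 8.25 CPM against 1.81, 2.14, 1.77, 2 and 2.51 CPM (1.05 ± 0.31), or 0.67 ± 0.21 without mouse 5, and mouse 4 lay within the control range. Without mouse 5, Cxcl10 and Ifit3 passed, with 2.25 ± 0.38 and 0.74 ± 0.15 (edgeR adjusted p = 0.0163 and 0.0371).

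Promoters of these 3 genes are shown because they carry the interferon-stimulated response element, searched as GAAA, any 2 bases and GAAA on either strand, in capitals. The windows are chr5:92348840-92349139, minus strand for Cxcl10, chr19:34583279-34583578, plus strand for Ifit3 and chr19:34640639-34640938, plus strand for Ifit1 (RefSeq, GRCm38.p6), each written 5′ to 3′ on the gene's strand.
Cxcl10: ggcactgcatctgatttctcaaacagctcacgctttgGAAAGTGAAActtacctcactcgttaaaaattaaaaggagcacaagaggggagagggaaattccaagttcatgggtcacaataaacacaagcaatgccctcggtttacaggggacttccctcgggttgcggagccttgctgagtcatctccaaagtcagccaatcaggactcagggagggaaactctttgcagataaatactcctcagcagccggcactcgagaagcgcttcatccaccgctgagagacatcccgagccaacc
Ifit3: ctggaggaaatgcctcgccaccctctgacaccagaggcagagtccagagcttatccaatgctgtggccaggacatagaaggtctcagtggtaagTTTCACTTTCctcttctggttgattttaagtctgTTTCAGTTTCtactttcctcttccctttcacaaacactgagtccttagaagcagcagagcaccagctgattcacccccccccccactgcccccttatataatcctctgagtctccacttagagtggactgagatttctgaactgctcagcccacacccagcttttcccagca
Ifit1: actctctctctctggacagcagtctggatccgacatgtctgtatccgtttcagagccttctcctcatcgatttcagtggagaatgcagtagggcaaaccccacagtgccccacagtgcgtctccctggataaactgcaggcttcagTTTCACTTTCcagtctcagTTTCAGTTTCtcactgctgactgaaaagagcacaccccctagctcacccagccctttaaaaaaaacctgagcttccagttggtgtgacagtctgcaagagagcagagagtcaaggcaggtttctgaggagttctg
The match of Cxcl10 lies 213 bases before the start site on the gene's strand. Those of Ifit3 lie 122 and 156 bases before it and those of Ifit1 85 and 104, all on the opposite strand. Of the 25 genes in the list 19 have a window, and 12 of these, or 63.2%, hold the element, against 3.99% of all 27025 genes with a window. The list is of known interferon targets, so a share above the background follows from how such genes are chosen. Among the genes whose APP/Tau values all lay above the controls, 20 of 443 windows, or 4.51%, held it. The share was 3.68% over the 15958 windows of all genes tested and 2.66%, or 11 of 413, for genes all below.

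Of 18 tested cytokine and chemokine genes, none was called in this list, to which Ccl3 and Ccl6 do not belong, 13 had higher and 1 lower values at an unadjusted p under 0.05, and the median was 0.77. Ccl9 was at 2.22, 5.13, 3.04, 0.596 and 4.36 CPM in the APP/Tau mice and at 0.579, 0.215, 0.301, 0.43 and 0.833 CPM in the controls (2.70 ± 0.52, edgeR adjusted p = 0.077), or 2.54 ± 0.52 without mouse 5 (edgeR adjusted p = 0.0414). Cxcl13, which attracts B cells, was at 0.162, 4.42, 0.0904, 0.766 and 9.48 CPM against 0.0463, 0.108, 0.117, 0.403 and 0.143 CPM (4.17 ± 1.15, edgeR adjusted p = 0.135). In Cxcl13 mice 2 and 5 were far above the controls, mouse 4 was above the highest control and mice 1 and 3 lay within the control range.

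Reactive astrocyte genes stood higher in the APP/Tau mice, and their list median had the order of mice of the plaque microglia list. In the 3 genes given here, mouse 3 and not mouse 4 was the lowest APP/Tau mouse. Gfap was at 1592, 1302, 898, 989 and 4914 CPM in the APP/Tau mice and at 498, 436, 375, 374 and 396 CPM in the controls. The lowest APP/Tau mouse was above the highest control, but the difference of 2.22 ± 0.42 did not pass (edgeR adjusted p = 0.077), and it was 1.52 ± 0.15 without mouse 5 (edgeR adjusted p = 0.000476). Serpina3n, a secreted protease inhibitor, was at 90.3, 72.4, 49.1, 62.5 and 296 CPM against 36.4, 28.5, 33.1, 35.8 and 33.6 CPM (1.77 ± 0.42, edgeR adjusted p = 0.106). Aspg, an asparaginase, was at 11.4, 7.11, 4.65, 7.21 and 22.5 CPM against 3.54, 2.75, 2.55, 2.09 and 1.93 CPM (2.04 ± 0.37, edgeR adjusted p = 0.073). Without mouse 5 these were 1.04 ± 0.14 for Serpina3n and 1.57 ± 0.24 for Aspg (edgeR adjusted p = 0.00404 and 0.00869). Of the 10 fits that left out a library, Gfap and Aspg were called in 2 and Serpina3n in 1. Of 30 reactive astrocyte genes none was called, 19 had higher values at an unadjusted p under 0.05, 10 did not overlap, and the median was 1.13. Over all genes tested, 8.68% were higher at that p and 2.55% lay above the controls without overlap. The list's median was 0.69, 0.40, 0.32, 0.16 and 1.88 in APP/Tau mice 1 to 5, and without mouse 5 10 of the 30 rose.

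General astrocyte genes differed less. The median over 17 genes was 0.18, with none called and 4 higher at an unadjusted p under 0.05. Aqp4, the water channel of astrocyte end-feet, was at 216, 204, 194, 176 and 522 CPM in the APP/Tau mice and at 187, 199, 151, 145 and 181 CPM in the controls (0.60 ± 0.27), with mouse 5 far above all others and mice 3 and 4 within the control range. S100b, a calcium-binding protein, was at 156, 152, 140.3, 140.4 and 293 CPM against 114, 115, 119, 112 and 116 CPM (0.61 ± 0.18, edgeR adjusted p = 0.149), without overlap. Without mouse 5, Aqp4 gave 0.19 ± 0.09 and S100b 0.35 ± 0.04 (edgeR adjusted p = 0.37 and 0.00287). S100b was called in 1 of the 10 fits that left out a library. Slc1a2, the main glutamate transporter, was at 2421 ± 282 and 2285 ± 98.9 CPM (mean ± SD, n = 5 each), a difference of 0.08 ± 0.08.

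Oligodendrocyte and vessel genes did not pass in either direction. The median of 21 myelin genes was 0.35, with 5 higher at an unadjusted p under 0.05, and mouse 5 was the highest APP/Tau mouse in 20. Mbp, myelin basic protein, was at 2619, 1987, 2121, 1969.8 and 3922 CPM in the APP/Tau mice and at 2551, 1558, 1554, 2054 and 2302 CPM in the controls (0.33 ± 0.20), and apart from mouse 5 the groups overlapped. Without mouse 5 the difference was 0.12 ± 0.14. Precursor cell genes had a median of 0.06 over 11 genes and vessel genes of 0.11 over 22. Mfsd2a, a lipid transporter of brain endothelium, had lower values in every APP/Tau mouse, at 7.24 to 9.88 against 10.3 to 13.5 CPM (-0.37 ± 0.11, edgeR adjusted p = 0.143).

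**Figure D4:**
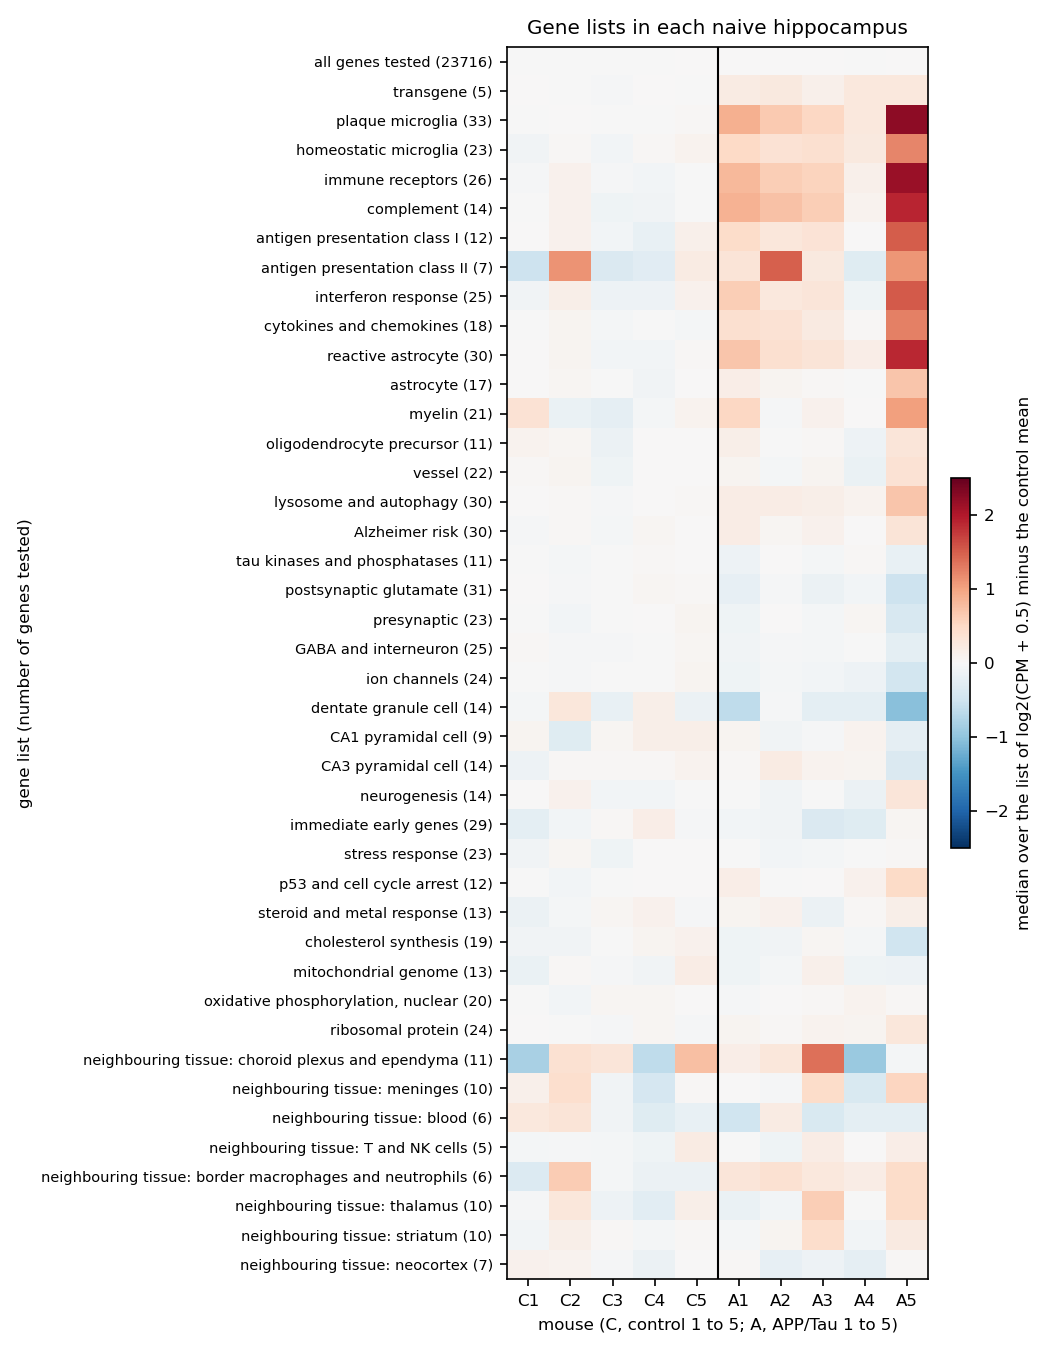
Median over each gene list of log2(CPM + 0.5) minus the control mean, in each control (C1 to C5) and APP/Tau mouse (A1 to A5), with red above and blue below the control mean. Most microglial, immune and reactive astrocyte rows are darkest in A5, then A1, and palest in A4. The rows of class II presentation, of T and NK cells and of border macrophages and neutrophils have other orders. The row of plaque microglia runs from 0.27 in A4 to 2.23 in A5.

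Lysosomal hydrolases stood higher and autophagy genes were mixed. Of 30 lysosome and autophagy genes none was called, 15 were higher and 1 lower at an unadjusted p under 0.05, and the medians were 0.46 for 15 hydrolases and 0.11 for 15 membrane and autophagy genes. Ctsb, a cathepsin, was at 586, 533, 525, 498 and 998 CPM in the APP/Tau mice and at 488, 436, 459, 454 and 465 CPM in the controls (0.45 ± 0.17). Ctss, the cathepsin of microglia, was at 121, 103, 89.7, 71.8 and 314 CPM against 46.4, 51.6, 46.3, 52.2 and 52.2 CPM (1.49 ± 0.34, edgeR adjusted p = 0.102), and Gusb, a glucuronidase, at 87.4, 87.1, 90.9, 86.8 and 94.6 CPM against 78.9, 73, 79.2, 77.5 and 79.7 CPM (0.20 ± 0.05, edgeR adjusted p = 0.101). Ulk1, the kinase that starts autophagy, was the lower gene, at 59.5, 63.8, 63.8, 56.7 and 57.5 CPM against 72.7, 81.1, 71.2, 68.6 and 76 CPM (-0.29 ± 0.06, edgeR adjusted p = 0.0796). None of these 4 genes overlapped between the groups. In Ulk1 mouse 4 was the lowest and mouse 5 the next. Without mouse 5, Ctsb gave 0.22 ± 0.05 (edgeR adjusted p = 0.0731), Ctss 0.95 ± 0.11 (edgeR adjusted p = 0.00228) and Ulk1 -0.28 ± 0.06 (edgeR adjusted p = 0.0443).

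Orthologs of Alzheimer risk genes had different medians by role. The median was 0.68 over 12 myeloid and lipid genes, 0.14 over 9 endocytosis and adhesion genes and 0.07 over 9 secretase genes, with none of the 30 called. For the myeloid and lipid genes the list's median was 0.49, 0.27, 0.19, 0.05 and 1.51 in APP/Tau mice 1 to 5, and mouse 5 was the highest in 11 of 12. Inpp5d, a phosphatase of microglia, was at 18.6, 17, 13.8, 12.1 and 32.3 CPM in the APP/Tau mice and at 10.7, 11.3, 8.8, 10.9 and 10.4 CPM in the controls (0.85 ± 0.22), a difference of 0.56 ± 0.12 without mouse 5. Sorl1, which sorts the amyloid precursor away from its secretases, was at 376, 411, 352, 390.4 and 351 CPM against 488, 429.5, 421, 470.0 and 446 CPM (-0.26 ± 0.06, edgeR adjusted p = 0.106), lower in every APP/Tau mouse. Among 11 tau kinases and phosphatase subunits none was called and the median was -0.05. Mark2, a kinase of tau, was at 75.7 to 89.7 against 93 to 95.7 CPM (-0.17 ± 0.05).

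Postsynaptic genes had small differences of 1 sign. All 31 had lower mean values in the APP/Tau mice, 11 at an unadjusted p under 0.05, with a median of -0.19 and none called. Over all genes tested, 7.56% were lower at that p, and 11267 of 23716 had a log2 difference below 0. The list's median was -0.20, -0.03, -0.15, -0.07 and -0.53 in APP/Tau mice 1 to 5. Mouse 5 was the lowest APP/Tau mouse in 27, and in 7245 of all 23716 genes tested. The medians were -0.13 for AMPA and kainate receptors other than Grik1, -0.25 for NMDA and metabotropic receptors and -0.20 for scaffolds and adhesion proteins. Shank1, a scaffold of the postsynaptic density, was at 417, 458, 433, 382 and 331 CPM in the APP/Tau mice and at 555, 499.9, 454, 534 and 515 CPM in the controls (-0.34 ± 0.09, edgeR adjusted p = 0.119). Nlgn3, an adhesion protein, was at 57.1, 69.5, 63.3, 67.9 and 56.9 CPM against 79.9, 76.6, 72.1, 71.4 and 77.8 CPM (-0.26 ± 0.07, edgeR adjusted p = 0.114). The NMDA receptor subunit Grin2b gave -0.29 ± 0.10. Without mouse 5 the differences were -0.28 ± 0.07 for Shank1, -0.23 ± 0.06 for Nlgn3 and -0.22 ± 0.07 for Grin2b, and none passed the edgeR test. Nlgn3 did not overlap between the groups, and in Shank1 mouse 2 lay just above the lowest control.

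Presynaptic, inhibitory and ion channel genes were closer to 0. The median was -0.06 over 23 presynaptic genes, -0.09 over 25 GABA and interneuron genes and -0.17 over 24 ion channel genes, with none called. Mouse 5 was the lowest APP/Tau mouse in 19 of the presynaptic, 12 of the GABA and interneuron and 20 of the ion channel genes. Over all 23716 genes tested it was the lowest in 7245. The list medians in APP/Tau mice 1 to 5 were -0.11, 0.02, -0.04, 0.05 and -0.41 for presynaptic genes and -0.11, -0.04, -0.07, -0.12 and -0.46 for ion channels. Snap25, of the fusion machinery, was at 2285, 2468, 2319.6, 2508 and 1781 CPM in the APP/Tau mice and at 2209, 2199, 2429, 2293 and 2417 CPM in the controls (-0.02 ± 0.09), and its sign turned without mouse 5, to 0.05 ± 0.05. Pclo, of the active zone, gave -0.27 ± 0.12, or -0.16 ± 0.06 without mouse 5, and Gabrd, an extrasynaptic GABA receptor subunit, -0.18 ± 0.07. Kcnc1, a potassium channel of fast-spiking neurons, was at 166, 177, 186, 165 and 165 CPM against 188, 210.1, 194, 189 and 196 CPM (-0.19 ± 0.05, edgeR adjusted p = 0.138), lower in every APP/Tau mouse.

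Among the neuron types of the hippocampus, dentate granule cell markers had the lowest median. All 14 had lower mean values, 8 at an unadjusted p under 0.05, the median was -0.40 and none was called. The list's median was -0.64, -0.02, -0.25, -0.25 and -1.05 in APP/Tau mice 1 to 5. In controls 1 to 5 it was -0.06, 0.29, -0.19, 0.15 and -0.14. Mouse 2 thus lay within the control range and mice 3 and 4 just below it. Prox1, the transcription factor of granule cells, was at 82.1, 110.5, 104, 98.1 and 67.2 CPM in the APP/Tau mice and at 134, 173, 122, 149 and 126 CPM in the controls (-0.61 ± 0.13, edgeR adjusted p = 0.101), without overlap, and without mouse 5 it gave -0.51 ± 0.11 (edgeR adjusted p = 0.0481). The calcium buffer Calb1 was at 90.9, 121, 124, 88.5 and 69 CPM against 131, 143, 117, 136 and 113 CPM (-0.37 ± 0.14), and Trpc6, a cation channel, at 9.91, 12.8, 11.7, 21.5 and 6.49 CPM against 18.9, 26.4, 17.5, 25.9 and 15.3 CPM (-0.74 ± 0.27). In both, mouse 5 was the lowest and the groups overlapped. The median was -0.07 for 9 CA1 markers and 0.07 for 14 CA3 and CA2 markers. Wfs1, a CA1 marker, gave -0.40 ± 0.15, and Pcp4, a calmodulin regulator of CA2, 0.24 ± 0.06. The median over 14 neurogenesis genes was -0.01, with Hes5, a Notch target of stem cells, at -0.58 ± 0.23.

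Immediate early genes, which neurons switch on within minutes of activity, varied among mice of both groups. Of 29 genes none was called, 3 were higher and 10 lower at an unadjusted p under 0.05, and the median was -0.17. Nr4a2, a nuclear receptor, was at 64.2, 51.4, 46.3, 51.3 and 68.8 CPM in the APP/Tau mice and at 80.9, 85.4, 77.4, 94.8 and 91.9 CPM in the controls (-0.61 ± 0.11, edgeR adjusted p = 0.0664), without overlap, and gave -0.69 ± 0.09 without mouse 5 (edgeR adjusted p = 0.00371). Fosl2 gave -0.52 ± 0.12 and Egr3 -0.48 ± 0.13. Fos was at 15.5, 13.5, 8.49, 7.78 and 25.9 CPM against 5.62, 13.9, 13.4, 23.3 and 11.6 CPM (0.07 ± 0.37), and Arc, a synaptic effector, at 125, 115, 72.9, 89.9 and 122 CPM against 85.5, 124, 147, 142 and 95.8 CPM (-0.18 ± 0.18). Fos ranged several-fold within each group, and its sign turned when control 1 or APP/Tau mouse 5 was left out. Npas4, a factor induced by calcium entry, gave 0.53 ± 0.20.

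Stress and metabolic genes had small medians as lists. The median was 0.03 over 23 stress genes, 0.02 over 20 nuclear genes of oxidative phosphorylation, -0.06 over 13 genes of the mitochondrial genome and 0.11 over 24 ribosomal protein genes, with none called. Within the stress list, 13 chaperones had a median of -0.14, with 5 lower and 1 higher at an unadjusted p under 0.05. The 10 integrated stress response genes had a median of 0.09, with 2 higher. Of the ribosomal protein genes 21 had higher means, 6 at that p, and mouse 5 was the highest APP/Tau mouse in 22. Hspa5, the chaperone of the endoplasmic reticulum, was at 225, 235, 223, 219 and 291 CPM in the APP/Tau mice and at 287, 394, 279, 256 and 324 CPM in the controls (-0.37 ± 0.12). Of 19 cholesterol synthesis genes 18 had lower mean values and the median was -0.13, with Cyp51 at -0.29 ± 0.07. Mouse 5 was the lowest APP/Tau mouse in 18 of the 19. The list's median was -0.11, -0.09, 0.06, -0.05 and -0.49 in APP/Tau mice 1 to 5, against -0.09 to 0.12 in the 5 controls. The metal-binding metallothioneins stood apart from these lists. Mt1 was at 211, 179, 157, 165 and 378 CPM against 128, 130.2, 123, 135 and 116 CPM (0.78 ± 0.21, edgeR adjusted p = 0.128), and Mt2 at 162, 140.1, 110.3, 120.4 and 298 CPM against 72, 78.9, 82.4, 96.5 and 79.4 CPM (1.02 ± 0.23, edgeR adjusted p = 0.102). Both were higher in every APP/Tau mouse, and without mouse 5 they gave 0.49 ± 0.08 and 0.70 ± 0.11 (edgeR adjusted p = 0.0112 and 0.00823).

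In all 9 glial and immune lists compared, mouse 5 was the highest APP/Tau mouse, mouse 1 second and mouse 4 the lowest. The lists are plaque and homeostatic microglia, immune receptors, complement, class I presentation, interferon, cytokines, reactive astrocytes, and lysosome and autophagy. Class II presentation, led by mouse 2, was not among them. Nor were T and NK cells, led by mouse 3, or border macrophages and neutrophils, where mouse 2 came after mouse 5. The order is thus that of the 9 lists chosen and not of every immune list. Mouse 5 was the highest APP/Tau mouse in 446 of the 605 genes whose APP/Tau values all lay above the controls and the lowest in 364 of the 570 whose values all lay below. Over all 23716 genes tested, mouse 5 was the highest APP/Tau mouse in 7560 and the lowest in 7245. Choroid plexus markers had another order. Summed levels of 11 choroid plexus genes ran from 277 to 1520 CPM in the APP/Tau mice, where mouse 3 was highest in 9, and from 313 to 1063 CPM in the controls. Summed levels of 10 thalamic genes ran from 160 to 294 CPM and from 150.1 to 217 CPM, those of 10 meningeal genes from 127 to 285 CPM and from 128 to 260.3 CPM, and none of these lists held a called gene. The T-cell genes Cd3d, Cd3e and Cd3g were at most 0.327 CPM in any library. Of a list of 12 T and NK cell genes, 5 were tested and none was called. These 5 had a median log2 difference of 0.57, with 3 higher and 2 lower in the APP/Tau mice. Summed levels of the 12 ran from 3.39 to 6.28 CPM in the APP/Tau mice and from 2.74 to 4.2 CPM in the controls. The part of dissection or cell number in the glial differences was not tested.

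**Figure D5:**
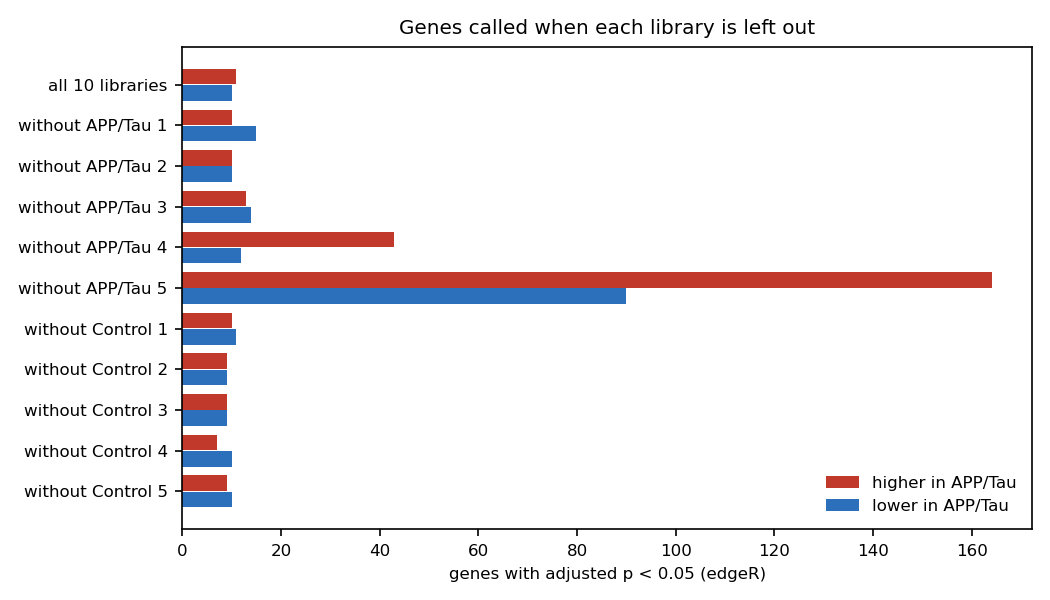
Number of genes called higher (red) and lower (blue) in APP/Tau mice by edgeR with all 10 libraries and with each library left out. The other 8 fits with a library left out give 17 to 27 genes in all; without APP/Tau 4 there are 43 higher, and without APP/Tau 5 there are 164 higher and 90 lower.

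How many genes were called depended on library 5, while which of the 21 were called mostly did not. Leaving out each library in turn kept 16 of the 21 calls in all 10 fits, and all 21 stayed called without mouse 5. The 5 that were lost in some fits were Ccl6, Gm35522, Gm6214, Npbwr1 and Slamf9. Slamf9 and Gm35522 were lost without control 4 or control 5, with edgeR adjusted p of up to 0.0674 and 0.0608. Gm6214 held only without APP/Tau 4 or APP/Tau 5, with edgeR adjusted p of up to 0.0947. Among genes that gained a call without mouse 5, Cd68, Cd84, Cd180, Cxcl10 and Ccl9 were called in 2 of the 10 fits. Ctss, Spi1, Ifit3, Mt1, Mt2, Prox1, Nr4a2, Ulk1 and Mapt were called in 1 of the 10. DESeq2 called 568 higher (2.4%) and 541 lower (2.28%), Gfap, Trem2, Cst7 and C4b among them.

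Whether the genotype effect in naive mice differs from that after fear conditioning was tested over all 20 hippocampal libraries. None of 25791 genes was called for a different effect (0%, edgeR quasi-likelihood F test of the interaction), 1005 had an unadjusted p under 0.05, and the smallest adjusted p was 0.984. DESeq2 called 3 genes. App gave an interaction of 0.06 ± 0.09, Prnp 0.11 ± 0.11, Cct8 0.03 ± 0.07, Gfap -0.53 ± 0.59 and Trem2 -0.35 ± 0.54, each as the naive effect minus the trained effect. The standard errors of Gfap and Trem2 leave room for a large difference in either direction. Those of Ccl3 (0.94) and Clec7a (1.27) were larger still, so the lack of calls does not show equal effects.

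Against the basolateral amygdala of naive mice, App was the gene called for a different genotype effect among 24530 genes (0.00408%, edgeR quasi-likelihood F test). DESeq2 called 48 genes, and edgeR 3 with a filter at a mean of 1 CPM or with a block of the mouse number. App in the amygdala had a mean of 1962 ± 164 CPM over 5 APP/Tau mice, and of 2182 ± 132 CPM over 5 controls (± SD), so the APP/Tau mean was not above the control mean there. The hippocampal effect minus the amygdala effect was 0.63 ± 0.09 (edgeR adjusted p = 0.0177), a call that held in 10 of 20 fits that left out a library, with adjusted p from 0.00952 to 0.0762. It was lost without hippocampal control 2, 3 or 4 or APP/Tau 3 or 4, and without amygdala control 2, 4 or 5 or APP/Tau 1 or 5. Prnp in the amygdala was at 1384 ± 185 against 950.2 ± 70.5 CPM, and its difference between tissues was 0.63 ± 0.12 (edgeR adjusted p = 0.107). Cct8 and Ltn1 of the chromosome 16 run differed between tissues by 0.17 ± 0.11 and 0.05 ± 0.09, and Gfap by -0.04 ± 0.76. Amygdala libraries were made from 10 ng of RNA and hippocampal ones from 50 ng. Count columns of the same number in the 2 tissues had the same genotype and training, so a mouse can have given both tissues. The main fit did not use this. With that number as a block, App gave 0.63 ± 0.08 (edgeR adjusted p = 0.0221).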

How the data were processed

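Poly(A) RNA of 10 hippocampal input lysates was sequenced as 2 × 50 bp pairs, per the labels' protocols. The authors deposited whole-number counts per gene symbol and library, without normalization; Trimmomatic 0.39 and build mm39 are named in the submitters' processing notes. The aligner, counter, annotation and library strandedness were not given in the sources used here. Small counts were more often even than odd, most so in APP/Tau 4 and 5; how mates of a pair were counted is not given, so small counts may rest on fewer fragments. No library pair was a duplicate (smallest chi-square per gene 22.9 over 45 pairs).

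Groups and mouse numbers come from the sample titles. The block of the mouse number in the tissue comparison used instead the number in the names of the count columns. The members and lists were chosen with earlier results of these data known. In R 4.3.3 with edgeR 4.0.16, the 10 libraries were fitted alone: filterByExpr (minimum count 10, minimum total 15), TMM factors, quasi-likelihood F test (2-sided), Benjamini-Hochberg adjustment, threshold 0.05. Each standard error was derived from F, as |log2 fold change| divided by its square root. List values per mouse are medians of log2(CPM + 0.5) minus the control mean. Interactions used all 20 hippocampal or the 20 naive libraries. The code was tested on simulated data. Alternatives were DESeq2 1.42.0, limma-voom (limma 3.58.1), RLE factors, other filters, a replicate block, 1 fit of all 20 hippocampal libraries and leaving out each library.

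The rule for genes in the text took C4b, Apoe, Trem2, Cst7, Gfap, Prnp, Mapt and App; up to 10 called genes a direction with the largest change and a mean of at least 1 CPM, predicted genes left out; up to 4 called members of each list and the 2 uncalled ones with the highest level; called genes of the interactions; and the chromosome 16 run. The other 66 of 103 genes were chosen after their values were seen, and not every gene the rule selects is named; some items are not reported here. Of 23716 tested symbols, 23094 match the RefSeq table of build GRCm38.p6, which served for gene order and promoter windows.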

Additional observations from a re-analysis of the deposited data

Results flagged for a closer look

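In 36 of 206 groups of 5 mice (103 genes, 2 groups each), the highest sample was far from the other 4. The measure is the gap to the nearest sample as a share of the group's whole range, against Dixon's 95% critical value for 5 samples. Chance flags about 1 in 20 groups, but 66 of the 103 genes were chosen after their values were seen and all share the same libraries, so the number of such groups is a description and is not compared with that rate.

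In 28 of these, APP/Tau mouse 5 was the highest of its group. The shares for the microglial, complement and immune genes and the rest were LOC118567924 (0.79), Cst7 (0.733), Clec7a (0.749), Trem2 (0.851), Tyrobp (0.802), Apoe (0.955), Cd68 (0.82), Ctsb (0.825), Ctss (0.798), P2ry12 (0.796), Cx3cr1 (0.858), Tmem119 (0.813), Cd84 (0.753), C4b (0.813), C1qa (0.865), C1qb (0.833), B2m (0.77), H2-D1 (0.775), Gfap (0.827), Serpina3n (0.833), Aqp4 (0.887), S100b (0.897), Spi1 (0.805), Mt1 (0.757), Mt2 (0.727), Hspa5 (0.781), Icam1 (0.716) and Rps20 (0.78). The list holds glial genes for the most part, together with Hspa5, a chaperone, and Rps20, a ribosomal protein. The cause was not tested. APP/Tau mouse 4 was the highest in 4930590L14Rik, with a share of 0.745.

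In the control group, mouse 1 was the highest in Itgax (0.724) and in the 18S ribosomal RNA gene Rn18s-rs5 (0.979). Control 2 was the highest in Cd74 (0.717) and Gabrd (0.906), control 3 in Rwdd2b (0.765) and control 4 in Cxcl13 (0.728) and Cdkn1a (0.714).

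The genotype effect on App differed between tissues, by 0.63 on the log2 scale as hippocampus minus amygdala (edgeR adjusted p = 0.0177 for the difference itself).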

How the results depend on the processing

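The number of called genes depended on the processing more than the direction of single genes did. DESeq2 called 1109 genes, 568 higher and 541 lower, among them 19 of the 21, and gave no adjusted p for 4930590L14Rik and Gm6214. Without a filter on low counts there were 76 calls (49 higher, 27 lower), and with a mean of at least 1 CPM 7 higher. A single fit of all 20 hippocampal libraries gave 52 (28 and 24). Leaving out each library gave 17 to 254 calls, 7 to 164 higher and 9 to 90 lower, and 749 to 1075 genes with APP/Tau values all above and 670 to 949 all below the controls. Without both control 1 and APP/Tau 5, chosen after seeing the data, there were 179 calls (107 higher, 72 lower), and 958 and 1046 genes without overlap. limma-voom called 18, losing Ccl3, Ccl6 and LOC118567924 (adjusted p = 0.103, 0.144 and 0.0681), and RLE factors 21. DESeq2 called 3 genes for the training interaction, and leaving out a library 0 to 0. For the tissue difference DESeq2 called 48 genes, no filter 2, the filter at 1 CPM 3, and leaving out a library 0 to 4. The cause was not tested.

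With the replicate number as a block, edgeR called 24 genes (13 higher, 11 lower), 15 of them among the 21. App (adjusted p = 0.0748), Slamf9, Gm35522, 4930590L14Rik, Gm6214 and Npbwr1 were not called in this fit. Same-numbered samples correlated by -0.04 to 0.13 in their deviations from the group means, and 1 of 5 APP/Tau samples correlated best with its own number, so the numbers were not taken to pair the mice. The block gave 0 genes for the interaction and 3 for the tissue difference.

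Of 1840 values of the 103 genes under alternatives, 1650 kept direction and call, 139 gained a call, 36 lost it and 15 changed sign. Leaving out a library gave -0.040 to 0.19 for Tmem119, -0.050 to 0.051 for H2-DMa, -0.062 to 0.053 for Snap25, -0.26 to 0.35 for Fos and -3.70 to 0.49 for Rn18s-rs5. APP/Tau 5 turned the sign of Tmem119, Snap25 and Fos, control 1 that of Fos and Rn18s-rs5, and control 2, control 4, APP/Tau 2 or APP/Tau 3 that of H2-DMa. Without both control 1 and APP/Tau 5, Tmem119 gave -0.070, Snap25 0.032, Fos -0.46 and Rn18s-rs5 0.38. H2-DMa gave -0.00013 without a filter and -0.00011 with the block. Genes near 0 counts in controls are limited by depth.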

Other observations

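Genes of cell cycle arrest and adhesion were not described above. Cdkn1a, an inhibitor of cyclin-dependent kinases, was at 17.3, 6.4, 7.17, 5.65 and 31 CPM in APP/Tau mice 1 to 5 and at 5.91, 6.07, 5.6, 8.75 and 6.5 CPM in the controls. Mice 1 and 5 were above every control and the other 3 within or near the control range (1.04 ± 0.42, edgeR adjusted p = 0.26), and without mouse 5 the difference was 0.48 ± 0.29. Icam1, an adhesion molecule of endothelium and leukocytes, was at 4.09, 3.9, 4.68, 2.11 and 11.2 CPM against 1.72, 2.85, 1.97, 2.75 and 2.33 CPM (1.16 ± 0.36, edgeR adjusted p = 0.163), or 0.67 ± 0.22 without mouse 5, and mouse 4 lay within the control range. Over 12 genes of the p53 and cell cycle arrest list the median log2 difference was 0.14, with none called and 4 higher at an unadjusted p under 0.05.

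The X inactivation RNA Xist was present in all 10 libraries, at 238, 212, 251, 201 and 195 CPM in the APP/Tau mice and at 347, 439, 329, 250.5 and 269 CPM in the controls (-0.57 ± 0.14, edgeR adjusted p = 0.106). Mouse 3 lay just above the lowest control, so the groups touch. Enpp6, a marker of newly formed oligodendrocytes, was at 17.4, 10.9, 14.3, 11.1 and 24.1 CPM against 11.4, 9.54, 8.08, 9.83 and 12.1 CPM (0.61 ± 0.20, edgeR adjusted p = 0.189), with mouse 5 the highest, and 0.40 ± 0.15 without it.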
